A study of Mus musculus with 29 samples.

Results

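The tRNA genes for the amide amino acids asparagine (Asn) and glutamine (Gln) were taken from a table of RPC4 occupancy at RNA polymerase III (Pol III) loci in regenerating mouse liver. All entries whose name gave the isotype Asn or Gln were used, which gave 30 genes beside 403 other tRNA genes and 213 Pol III loci of other kinds in the table. They comprised 14 tRNA-Asn genes with the anticodon GTT, 10 tRNA-Gln genes with the anticodon CTG and 6 tRNA-Gln genes with the anticodon TTG. RPC4 is a subunit found only in Pol III, and it was profiled by chromatin immunoprecipitation and sequencing (ChIP-seq) in liver of male C57BL/6 mice aged 12 to 14 weeks. Liver was taken at 0 h (TP0) and at 36, 48 and 60 h (TP36, TP48 and TP60) after partial hepatectomy (PH), the surgical removal of most of the liver, and each of the 4 groups had 2 RPC4 libraries. The authors kept the mice in a light and dark cycle, fed them only at night and operated early in the light phase. TP36 and TP60 thus fell at another time of day than the operation. For these 2 time points, time of day and feeding cannot be told apart from time after PH. No sham-operated group was analysed here, all mice were of the same strain, and each library was made from the pooled livers of 3 mice. The spread between the 2 libraries is thus the spread between pools. In whole liver, more cells with Pol III on a gene and more Pol III per cell cannot be told apart. The table holds Pol III loci alone, so that the labelled tissue could not be checked against marker genes.

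tRNA-Asn and tRNA-Gln carry the 2 amino acids whose side chains end in an amide. The anticodon GTT reads both asparagine codons, CTG reads the glutamine codon CAG, and TTG reads the codon CAA. A tRNA gene is transcribed by Pol III from a promoter within the gene, in which the A box and the B box bind the factor TFIIIC, which places TFIIIB upstream of the start, and TFIIIB recruits the polymerase. Transcription ends at a run of T residues just after the gene. Copies of a tRNA gene can be identical over the whole transcribed part and still differ in their flanks, and in liver the cells that remain after PH leave their resting state and divide.

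The genes are shown because copies with the same gene body gave very different scores. Each sequence was read from the mouse reference NCBI37 (mm9) at the coordinates of the table, on the strand of the gene, and the anticodon in the name was found at position 35 of the 14 Asn genes and position 34 of the 16 Gln genes, counted from 1 at the 5′ end. In the first sequence of each kind, capitals mark the anticodon and the core of the B box (GTTCNANNC, searched on the strand of the gene and present in 89.4% of all tRNA genes). In the others, capitals mark the bases that differ from the first sequence of their kind.
tRNA-Asn GTT, shared by 9 genes, here n-Tn6, chr1:172964073-172964146, minus strand: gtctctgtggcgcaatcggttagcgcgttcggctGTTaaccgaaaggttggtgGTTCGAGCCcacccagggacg
n-Tn4, chr3:96125997-96126070, plus strand: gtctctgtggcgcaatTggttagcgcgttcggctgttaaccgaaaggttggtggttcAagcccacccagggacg
n-Tn5, chr3:96138538-96138611, minus strand: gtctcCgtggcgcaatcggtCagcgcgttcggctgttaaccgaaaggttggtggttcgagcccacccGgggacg
n-Tn1, chr3:96138894-96138967, plus strand: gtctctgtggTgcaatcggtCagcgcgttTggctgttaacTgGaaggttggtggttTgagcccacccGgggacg
tRNA-Gln CTG, shared by 4 genes, here n-Tq8, chr13:22025830-22025901, minus strand: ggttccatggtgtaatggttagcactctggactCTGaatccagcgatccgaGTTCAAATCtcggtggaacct
n-Tq5, with the same sequence as n-Tq3 and n-Tq4, chr3:96145079-96145150, minus strand: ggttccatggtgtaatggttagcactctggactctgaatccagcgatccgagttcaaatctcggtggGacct
n-Tq10, chr13:22012069-22012140, plus strand: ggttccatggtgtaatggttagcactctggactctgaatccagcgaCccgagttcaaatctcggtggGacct
tRNA-Gln TTG, shared by n-Tq14 and n-Tq15, here n-Tq14, chr13:23610919-23610990, plus strand: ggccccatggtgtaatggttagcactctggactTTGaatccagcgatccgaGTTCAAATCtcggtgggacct
n-Tq13, chr13:21360338-21360409, minus strand: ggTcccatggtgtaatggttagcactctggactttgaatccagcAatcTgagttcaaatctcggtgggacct
n-Tq12, chr11:86075670-86075741, plus strand: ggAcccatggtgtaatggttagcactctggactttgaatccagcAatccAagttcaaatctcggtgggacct
n-Tq11, chrX:13436292-13436363, minus strand: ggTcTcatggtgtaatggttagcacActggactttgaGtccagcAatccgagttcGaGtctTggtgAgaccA
The first CTG and TTG sequences differ by T3C, T4C, C34T and A68G, and so share 94.4% of their 72 bases.

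The RPC4 score compares ChIP with input fragments in the gene and 150 bases on each side of it, as a log2 ratio with a pseudocount, and every score or change below is on this log2 scale. A gene was counted as occupied when its score passed the authors' cutoff of at least 1 library, which was 0.81 to 0.87 in replicate 1 and 1.33 to 1.55 in replicate 2. Of the 30 genes, 25 were occupied in at least 1 of the 8 libraries and 17 in all 8. At TP0, 18 genes were occupied (60.0%, against 56.8% of all tRNA genes), and 25 were at each of the later time points (83.3%, against 68.4% of all tRNA genes at TP36), so that 7 genes passed the cutoff only after PH. The 5 genes that stayed below it are 16.7% of the genes, against 31.2% of all tRNA genes and 23.8% of all loci.

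Libraries of the same time point were not level with each other. At the 25 occupied genes, replicate 1 minus replicate 2 had a median of 0.06 at TP0 and 0.97 at TP36, and of -0.56 at TP48 and -0.83 at TP60. Replicate 1 was the higher of the pair at 24 of the 25 genes at TP36 and at 0 of 25 at TP60. The 492 occupied loci of the whole table were shifted alike, with medians of 0.01, 0.91, -0.40 and -0.86. At the 154 loci below the cutoff throughout, the median score of each library stayed between -0.06 and 0.07. The part of these shifts in the results was examined by leaving out in turn each library of the 2 time points compared.

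**Figure D1:**
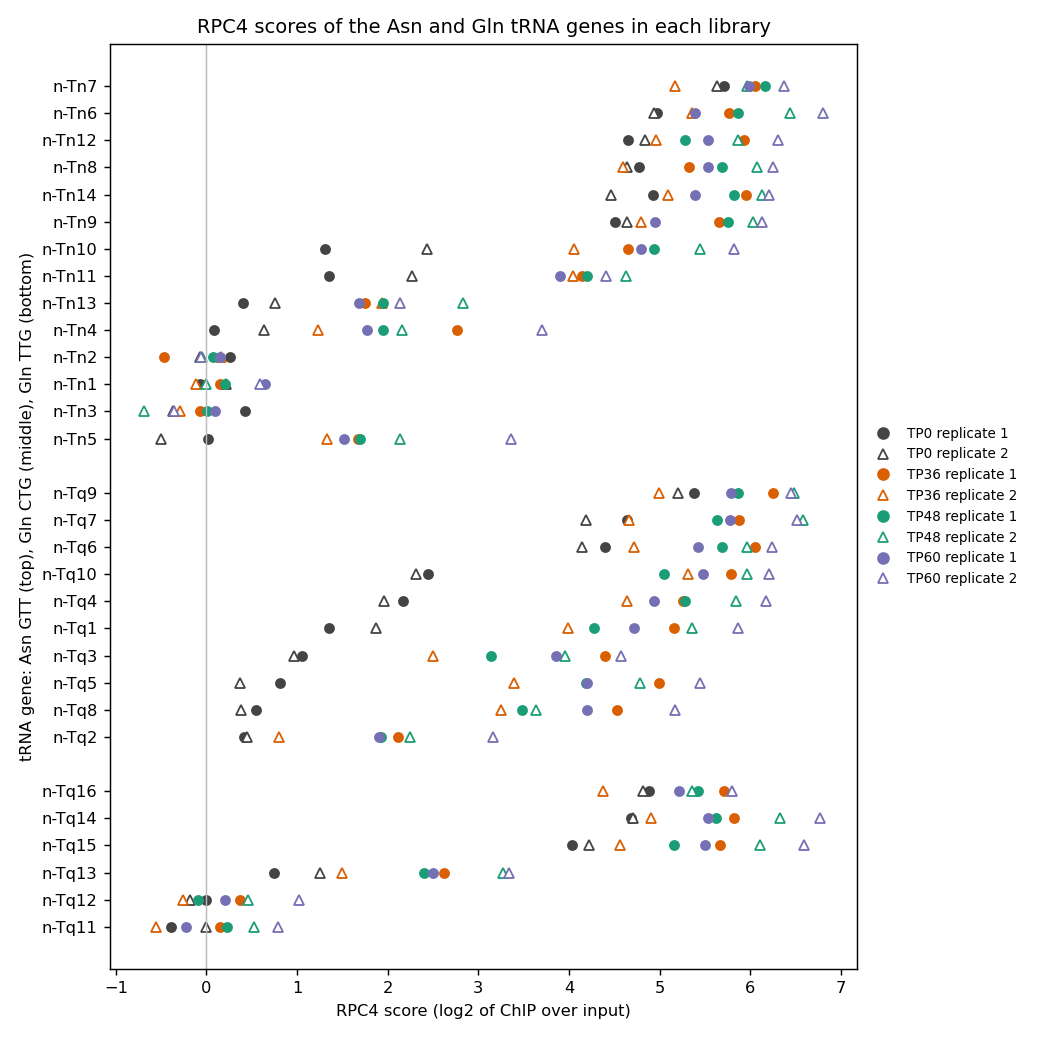
RPC4 score (log2 of ChIP over input, x axis) of each of the 30 genes (y axis, ordered by the mean score at TP0 within Asn GTT, Gln CTG and Gln TTG) in the 8 libraries, with colour for the time point, filled circles for replicate 1 and open triangles for replicate 2. The 12 genes with a TP0 mean of 4.13 or more form a group apart from the others, of which the highest had 2.38, and the 5 genes that were never occupied stay between -0.69 and 1.02 in all libraries.

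Before PH, the genes fell into high and low ones with no gene between. The mean TP0 score was 4.13 to 5.67 in 12 genes, -0.24 to 2.38 in the other 13 occupied genes and -0.20 to 0.09 in the 5 genes that were never occupied. The high set held 6 Asn GTT, 3 Gln CTG and 3 Gln TTG genes. The division at 4 was made after the values were seen and is a description.

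Among the Asn genes, n-Tn7 had the highest TP0 score, with 5.71 and 5.63 in the 2 libraries, followed by 6.06 and 5.17 at TP36, 6.16 and 5.96 at TP48, and 5.99 and 6.37 at TP60. Its scores at TP36 lay on both sides of those at TP0. n-Tn6 had 4.97 and 4.93 at TP0, 5.76 and 5.35 at TP36, 5.86 and 6.43 at TP48, and 5.39 and 6.80 at TP60, so that all 6 later scores were above both TP0 scores. n-Tn12 had 4.65 and 4.83 at TP0, 5.93 and 4.96 at TP36, 5.28 and 5.86 at TP48, and 5.53 and 6.31 at TP60, again with no overlap. In the order of the TP0 means, n-Tn7 (5.67 ± 0.06, SD, n = 2) stood above n-Tn6 (4.95 ± 0.03) by more than their spread. n-Tn12, n-Tn8, n-Tn14 and n-Tn9 followed with means of 4.74, 4.70, 4.69 and 4.57 and SDs of 0.09 to 0.33, which overlap. The scored window of n-Tn7 overlaps that of n-Tf3, a tRNA-Phe gene 123 bases away with a TP0 mean of 5.35. How far n-Tf3 adds to the score of n-Tn7 was not tested.

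Among the Gln genes, n-Tq9 (CTG) was highest at TP0, with 5.38 and 5.20, and had 6.25 and 4.99 at TP36, 5.86 and 6.48 at TP48, and 5.78 and 6.45 at TP60. n-Tq16 (TTG) had 4.88 and 4.81 at TP0, 5.71 and 4.37 at TP36, 5.42 and 5.35 at TP48, and 5.21 and 5.79 at TP60. In both genes, replicate 2 of TP36 was below the TP0 scores and the other 5 later scores were above them. n-Tq14 (TTG) had 4.69 and 4.71 at TP0, 5.82 and 4.90 at TP36, 5.62 and 6.33 at TP48, and 5.53 and 6.77 at TP60, all later scores being higher than both at TP0.

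Time points were compared with a linear model over all loci (limma), and a gene was called changed when its q value (Storey) was under 0.05 and it was occupied at 1 of the 2 time points. At TP36, 10 of the 30 genes had risen and 0 had fallen. These were 6 Gln CTG genes (n-Tq1, n-Tq3, n-Tq4, n-Tq5, n-Tq8 and n-Tq10), 4 Asn GTT genes (n-Tn5, n-Tn10, n-Tn11 and n-Tn13) and 0 of the 6 Gln TTG genes. Over the table, 141 of the 487 loci occupied at either time point were called higher (29%), and among the occupied tRNA genes 34.8% were, against 10 of the 25 occupied Asn and Gln genes. The median change was 1.05 over the 25 occupied genes, 0.97 over all occupied tRNA genes and 0.95 over all occupied loci. The count of 10 became 5 without replicate 1 of TP0, 7 without replicate 2 of TP0, 7 without replicate 1 of TP36 and 20 without replicate 2 of TP36. Centring each library on its median score over the occupied loci subtracted the same amount from every locus and shifted every change at TP36 by -1.81. The median change was then -0.76 over the 25 genes and -0.86 over all occupied loci, with 8 of the genes called higher and 15 lower, beside 64 loci called higher and 354 lower over the table.

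The 5 largest changes at TP36 were those of glutamine CTG genes. n-Tq5 had 0.82 and 0.37 at TP0, 5.0 and 3.39 at TP36, 4.19 and 4.79 at TP48, and 4.20 and 5.44 at TP60. It was below the cutoff in both TP0 libraries and far above it in all 6 later ones, with a change at TP36 of 3.60 ± 0.60 (SE, q = 0.00148), which is 12.1-fold on the scale of the ratio. n-Tq8 had 0.54 and 0.38 at TP0, 4.53 and 3.24 at TP36, 3.47 and 3.63 at TP48, and 4.20 and 5.17 at TP60. Its change at TP36 was 3.42 ± 0.52 (q = 0.00127), and it too passed the cutoff only after PH.

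n-Tq10 began higher, with 2.45 and 2.31 at TP0, and had 5.79 and 5.31 at TP36, 5.04 and 5.96 at TP48, and 5.48 and 6.20 at TP60. It rose by 3.17 ± 0.47 at TP36 (q = 0.00125). The scores of n-Tq1 were 1.35 and 1.87 at TP0, 5.15 and 3.98 at TP36, 4.28 and 5.35 at TP48, and 4.72 and 5.86 at TP60, with a change at TP36 of 2.96 ± 0.58 (q = 0.00336). In n-Tq4 they were 2.17 and 1.96 at TP0, 5.26 and 4.64 at TP36, 5.28 and 5.84 at TP48, and 4.94 and 6.17 at TP60, a change of 2.89 ± 0.50 at TP36 (q = 0.00155). In these 3 genes the lowest later score was over 2 above the highest at TP0. n-Tq3 had 1.05 and 0.97 at TP0, 4.40 and 2.50 at TP36, 3.14 and 3.95 at TP48, and 3.85 and 4.57 at TP60, and its libraries of TP36 differed more from each other (SD 1.34) than those of any other of the 30 genes. Its change at TP36 was 2.44 ± 0.61 (q = 0.0104). The calls of n-Tq1, n-Tq4, n-Tq5, n-Tq8 and n-Tq10 at TP36 held when any 1 of the TP0 and TP36 libraries was left out, whereas that of n-Tq3 was lost without replicate 1 or replicate 2 of TP0 and without replicate 1 of TP36, with an adjusted value of up to 0.118 and a change of 1.49 in the last case.

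Of the 4 asparagine genes called at TP36, n-Tn10 had 1.31 and 2.43 at TP0, 4.65 and 4.05 at TP36, 4.93 and 5.44 at TP48, and 4.80 and 5.82 at TP60. Its change at TP36 was 2.48 ± 0.53 (q = 0.00521). n-Tn11 had 1.35 and 2.27 at TP0, 4.14 and 4.04 at TP36, 4.19 and 4.63 at TP48, and 3.89 and 4.41 at TP60, a change of 2.28 ± 0.45 at TP36 (q = 0.00363). In both genes replicate 2 was the higher of the TP0 libraries, and both calls were lost without replicate 1 of TP0, with adjusted values of 0.0627 and 0.0528.

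n-Tn5 had 0.02 and -0.50 at TP0, 1.67 and 1.33 at TP36, 1.69 and 2.14 at TP48, and 1.52 and 3.36 at TP60. At TP36 it passed the cutoff in replicate 1 alone, and its change was 1.74 ± 0.57 (q = 0.0334). n-Tn13 had 0.40 and 0.76 at TP0, 1.75 and 1.94 at TP36, 1.95 and 2.83 at TP48, and 1.68 and 2.14 at TP60, a change of 1.26 ± 0.44 at TP36 (q = 0.0411). Both calls were lost with Benjamini-Hochberg adjustment and without replicate 1 of TP0, replicate 2 of TP0 or replicate 1 of TP36, that of n-Tn13 also in a fit of the 2 time points alone and in a fit of occupied loci only, and that of n-Tn5 also where the cutoff had to be passed in both libraries, with an adjusted value of up to 0.247 for n-Tn5 and 0.181 for n-Tn13.

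**Figure D2:**
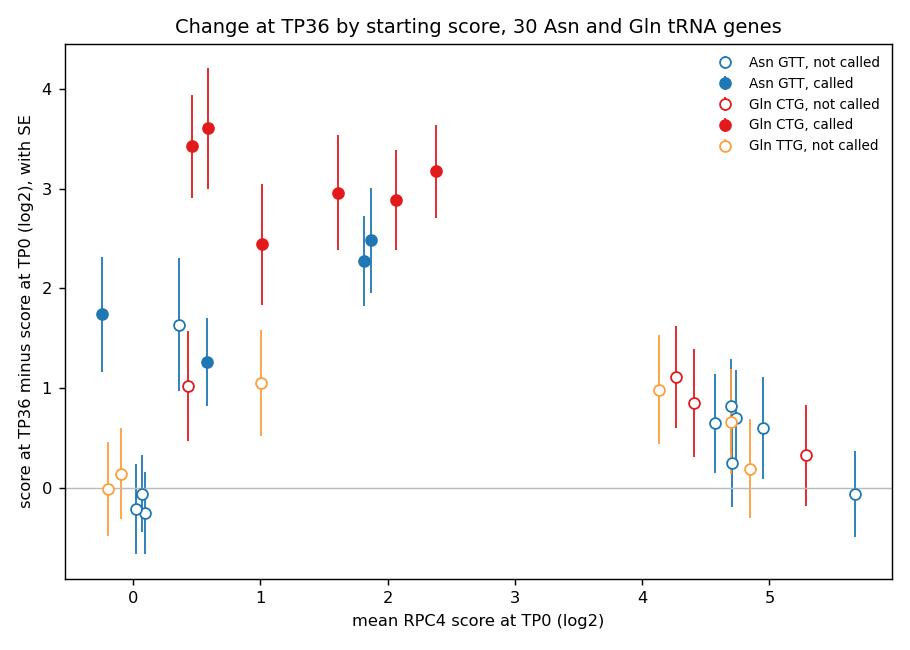
Change of the RPC4 score from TP0 to TP36 (y axis, log2, with its SE from limma) against the mean TP0 score (x axis, log2) of the 30 genes, filled where the change was called. The called genes all lie at a TP0 mean of 2.38 or less, and the 12 genes above 4 have changes of -0.06 to 1.11. Both axes use the TP0 libraries.

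At TP48, 21 of the 30 genes were called higher and 0 lower, and the same numbers were found at TP60. These were 9 Asn GTT, 9 Gln CTG and 3 Gln TTG genes at each time point. At TP48, 51.5% of the occupied loci and 62.9% of the occupied tRNA genes were called, against 21 of the 25 occupied Asn and Gln genes, and at TP60 the background was 57.3% of loci and 67.2% of tRNA genes. The median changes over the 25 genes were 1.69 at TP48 and 1.92 at TP60, beside 1.30 and 1.36 over all occupied tRNA genes and 1.11 and 1.21 over all occupied loci. The 29 occupied tRNA genes for Asp and Glu, the acids that correspond to these amides, had 11 calls at TP36, 18 at TP48 and 18 at TP60, with median changes of 0.97, 1.23 and 1.25. Of the 25 occupied Asn and Gln genes, 21 had all 6 later scores above both TP0 scores, which was so for 58.5% of all occupied loci and 67.4% of occupied tRNA genes. These shares are given as a description, since no test of this group of genes against others was made, and the 7 genes occupied only after PH could be counted only by being higher then.

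The number of calls at these time points depended on single libraries. At TP48 it was 9 and 7 without replicate 1 or 2 of TP0, 13 without replicate 1 of TP48 and 7 without its replicate 2. At TP60 it was 11 and 12 without replicate 1 or 2 of TP0, 23 without replicate 1 of TP60 and 9 without its replicate 2. With Benjamini-Hochberg adjustment, the counts were 8 at TP36, 12 at TP48 and 16 at TP60. Centring on the occupied loci shifted all changes by -2.02 at TP48 and -2.24 at TP60, and 8 genes were then called higher and 14 lower at each of the 2 time points. Over the table, 78 loci were then called higher and 371 lower at TP48, and 85 higher and 368 lower at TP60.

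The largest change at both time points was again that of n-Tq5, a CTG gene. It rose by 3.90 ± 0.60 at TP48 (q = 0.000744) and by 4.23 ± 0.60 at TP60 (q = 0.000287), which is 18.8-fold on the scale of the ratio. The TP60 change of n-Tq8 was 4.22 ± 0.52 (q = 0.000187), and that of n-Tq1 was 3.68 ± 0.58 (q = 0.000466). Among the Asn genes, n-Tn10 had the largest change at both time points, 3.32 ± 0.53 at TP48 (q = 0.000812) and 3.44 ± 0.53 at TP60 (q = 0.00041). The 10 genes called at TP36 were called at TP48 and TP60 as well, and these comparisons share their TP0 libraries.

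A further 12 genes were called at TP48 or TP60 but not at TP36, namely 6 Asn GTT, 3 Gln CTG and 3 Gln TTG genes, with changes at TP36 of 0.26 to 1.64. The largest moderated t among them was that of n-Tq2 (CTG), which had 0.42 and 0.45 at TP0, 2.12 and 0.80 at TP36, 1.93 and 2.25 at TP48, and 1.91 and 3.16 at TP60. Replicate 2 of TP36 was the lowest of its later scores and below the cutoff, and its change at TP60 was 2.10 ± 0.55 (q = 0.007). n-Tq13 (TTG) had 0.75 and 1.26 at TP0, 2.62 and 1.49 at TP36, 2.40 and 3.28 at TP48, and 2.50 and 3.34 at TP60, with a TP60 change of 1.92 ± 0.53 (q = 0.00925). n-Tn4 (Asn) had 0.09 and 0.63 at TP0, 2.76 and 1.23 at TP36, 1.94 and 2.15 at TP48, and 1.77 and 3.71 at TP60. Its change at TP36 was 1.64 ± 0.67 and missed the threshold (q = 0.067), and that at TP60 was 2.38 ± 0.67 (q = 0.00955). In all 3 genes the groups before and after PH did not overlap. The TP60 calls were lost without replicate 2 of TP60, with adjusted values of 0.0805 in n-Tq2, 0.0835 in n-Tq13 and 0.112 in n-Tn4, and those of n-Tq13 and n-Tn4 also without replicate 1 of TP0.

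The other 9 of the 12 genes had TP0 means above 4 and changed by 0.83 to 1.69 at TP48 and by 0.97 to 1.92 at TP60. n-Tn9 was called at TP48 (1.31 ± 0.50, q = 0.033) but not at TP60 (0.97 ± 0.50, q = 0.0679), and n-Tn12 at TP60 (1.18 ± 0.48, q = 0.0395) but not at TP48 (0.83 ± 0.48, q = 0.0847). The difference between the 2 time points was called in neither gene. The call of n-Tn12 was lost with Benjamini-Hochberg adjustment, with a replicate block and without either TP0 library. Of these 9 genes, 8 were called at TP48, and all 8 calls were lost without either TP0 library and without replicate 2 of TP48, where the changes were 0.91 to 1.41. The 8 genes called at TP60 all lost their calls without replicate 2 of TP60, where the changes were 0.44 (n-Tn6) to 1.37 (n-Tq15), and without replicate 2 of TP0.

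Of the occupied genes, 3 were called at no time point. n-Tn7 had changes of -0.06, 0.39 and 0.51 at TP36, TP48 and TP60 (SE 0.43), n-Tq9 of 0.33, 0.88 and 0.83 (SE 0.51), and n-Tq16 of 0.20, 0.54 and 0.66 (SE 0.49). These 3 genes had TP0 means of 5.67, 5.29 and 4.84, among the highest of the 30. A missed threshold does not show that they stayed level, since the SEs were close to those of the genes that were called.

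None of the 30 genes was called between TP36, TP48 and TP60, and none reached an unadjusted p under 0.05 in these comparisons (limma). The smallest unadjusted p was 0.0514. Over the table, 0 loci were called (0%), and 5 of 488 (1.02%), 7 of 490 (1.43%) and 15 of 487 (3.08%) occupied loci had an unadjusted p under 0.05 from TP36 to TP48, TP36 to TP60 and TP48 to TP60. From TP36 to TP60 the change was above 0 in all 25 occupied genes, from 0.06 to 1.08, as it was in 400 of the 492 occupied loci and 279 of the 298 occupied tRNA genes. Its median was 0.63 over the 25 genes and 0.43 over all occupied loci. By replicate, the median score of the 25 genes went from 5.32 to 4.95 in replicate 1 and from 4.56 to 6.13 in replicate 2. The direction thus depended on the libraries compared, and the count over genes is no count of replicates.

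Taking the high and low genes apart, 0 of the 12 genes with a TP0 mean above 4 were called at TP36, 8 at TP48 and 8 at TP60. Of the 13 lower occupied genes, 10 were called at TP36 and 13 at TP48 and TP60. Of the 149 other tRNA genes above 4, 4.03% were called at TP36, 38.9% at TP48 and 47.0% at TP60. Of the 124 lower occupied ones, 70.2%, 85.5% and 87.1% were. Both lower sets include genes that passed the cutoff only after PH and so entered by being higher then. Genes that were below it at TP0 and did not rise past it were counted as never occupied. The shares called in the lower sets are thus in part set by this filter. The SD over the 25 occupied genes was 1.98 at TP0 and 1.43, 1.48 and 1.37 at TP36, TP48 and TP60, and over all occupied loci it was 1.82 at TP0 and 1.61 to 1.74 later. Over the 273 other occupied tRNA genes it was 1.83 at TP0 and 1.29, 1.36 and 1.29 at TP36, TP48 and TP60, so that the fall in SD was not particular to these genes. The starting score and the change share the TP0 libraries, which links them, so that no correlation is given.

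Genes with the same gene body did not have the same score. The 9 Asn genes with identical 74 bases had TP0 means from 0.58 (n-Tn13) to 5.67 (n-Tn7), and at TP60 from 1.91 to 6.18, so that the range was 5.09 at TP0 and 4.27 at TP60. The low end was n-Tn13, whose score came almost wholly from fragments with multiple matches, and without this gene the range was 3.86 at TP0 and 2.03 at TP60. Of the 9 genes, the 6 high ones are n-Tn6, n-Tn7, n-Tn8, n-Tn9, n-Tn12 and n-Tn14, and the 3 low ones n-Tn10, n-Tn11 and n-Tn13 were those called at TP36. The 4 identical Gln CTG genes had TP0 means from 0.46 (n-Tq8) to 5.29 (n-Tq9), a range of 4.83, which was 1.74 at TP36, 2.62 at TP48 and 1.46 at TP60. n-Tq6 and n-Tq7 of this set had TP0 means of 4.27 and 4.41. The 3 genes with A68G as the only difference, n-Tq3, n-Tq4 and n-Tq5, were all low at TP0 (0.59 to 2.06) and all called at each later time point. They all lie in 1 region of chromosome 3. The 6 Gln TTG genes also have G at that position, with TP0 means from -0.20 to 4.84. Whether this base bears on the score was not tested.

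**Figure D3:**
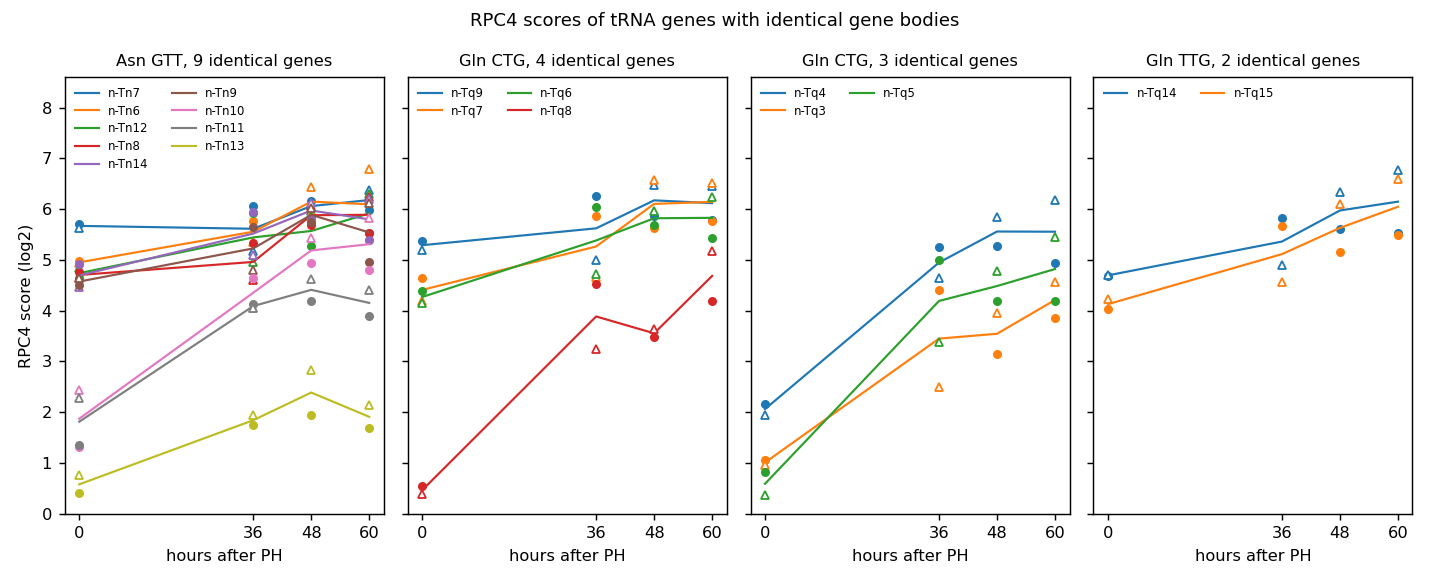
RPC4 score (y axis, log2) by hours after PH (x axis) for the 4 sets of genes with identical gene bodies, with lines through the means of the 2 libraries, filled circles for replicate 1 and open triangles for replicate 2. The 9 Asn genes span 5.09 at TP0 and 4.27 at TP60, or 3.86 and 2.03 without n-Tn13, and 3.80 and 0.87 without n-Tn11 and n-Tn13. The 4 Gln CTG genes span 4.83 at TP0 and 1.46 at TP60.

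Fragments that match several places in the genome could blur such copies. The share of a score from fragments with multiple matches was at most 7.21% in any library at 28 of the 30 genes. It was 7.08% to 12.0% at n-Tn11 and 98.4% to 100% at n-Tn13. These 2 genes lie 7639 bases apart on opposite strands of chromosome 3 and are copies that remain identical for 601 bases before and 2983 bases after the gene, which is more than the 150 bases used for the score. Their scores can therefore not be told apart by sequence, although the table lists n-Tn11 at 4.09 and n-Tn13 at 1.84 at TP36. The cause of their unequal shares was not tested.

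The 4 genes with 6 or more substitutions were all among those never occupied. n-Tn3 differed from the common Asn sequence at 8 positions, n-Tn1 at 7 and n-Tn2 at 6, and n-Tq11 from the TTG sequence at 10 and n-Tq12 at 3. The occupied variants had fewer, with T6C, T21C and A68G in n-Tn5, C17T and G58A in n-Tn4, C3T in n-Tq16, and 3 in n-Tq13 (C3T, G45A and C49T), which equals n-Tq12 (C3A, G45A and G50A). Of the CTG genes, n-Tq1 had 4 (T19C, A68G, C70T and C71T), n-Tq2 had T20G and A68G, and n-Tq10 had T47C and A68G. The B box core was found in 29 of the 30 genes. It was not found in n-Tn1, where C57T lies within it. A match or its lack is a description of these letters.

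The scores of the 5 never-occupied genes ran from -0.69 to 1.02 over all libraries. n-Tn1, n-Tn2 and n-Tn3 had TP0 means of 0.07, 0.09 and 0.03, and n-Tq11 and n-Tq12 of -0.20 and -0.09. The highest single score was that of n-Tq12 in replicate 2 of TP60, 1.02, which is below that library's cutoff of 1.33. These genes could not be called, since a call required a score above the cutoff. Their q values against TP0 were between 0.111 and 0.507. n-Tn1 lies 283 bases from n-Tn5, and the extended windows of both overlap. While n-Tn5 rose by 1.74 at TP36, n-Tn1 changed by -0.05.

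After the gene, a first run of 4 or more T began within 12 bases in all 12 high genes, at positions 3 to 12. It did so in 6 of the 13 lower occupied genes and began later or was not found within 40 bases in the other 7, and among the 5 never-occupied genes 1 had it within 12 bases. Of all tRNA genes, 63% had it within 12 bases. In the other tRNA genes the shares were 77.2% of the 149 high ones, 74.2% of the 124 lower occupied ones and 36.2% of the 130 never occupied. High and lower occupied genes thus had close shares among the other tRNA genes. The limit of 12 bases was chosen after the values were seen, so that these counts are given with no test. n-Tn5 and n-Tq12 had no run of 4 or more T in the 40 bases searched.

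**Figure D4:**
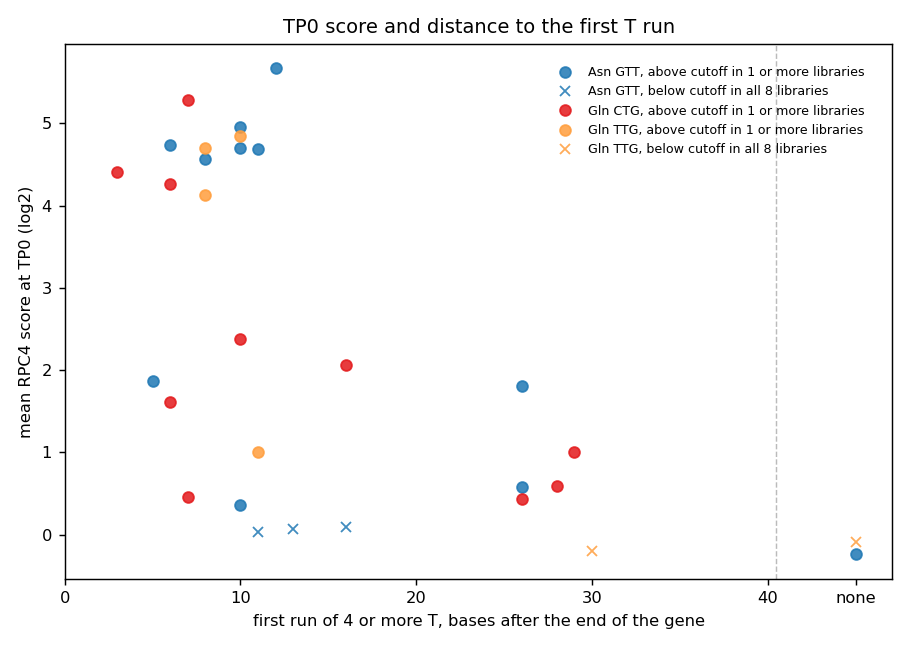
Mean RPC4 score at TP0 (y axis, log2) against the distance from the end of the gene to the first run of 4 or more T (x axis, bases, none if not found in 40) for the 30 genes, coloured by isotype and anticodon, with crosses for genes below the cutoff in all libraries. The 12 genes above 4 have it at 3 to 12 bases, and lower genes are spread from 5 bases to none.

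The genes called at TP36 came from 2 regions. On chromosome 3, 10 genes lie between positions 96125997 and 96301777, of which 9 were occupied and 7 were called at TP36. On chromosome 13, 7 genes lie between 21264220 and 23611553, all of them occupied and 3 called at TP36. Of the 13 genes elsewhere, 9 were occupied and 0 were called at TP36. Of these 9, 8 had TP0 means above 4, against 1 of the 9 occupied genes in the region of chromosome 3 (n-Tn12). In that of chromosome 13 it was 3 of 7 (n-Tq7, n-Tq14 and n-Tq15). The remaining occupied gene elsewhere, n-Tq2, also lies on chromosome 3, at position 97485382 and outside the region used, with a TP0 mean of 0.43. Region and starting score thus go together in these genes. These counts cover the Asn and Gln genes alone, and the shares of other tRNA genes called in the same regions were not determined. At TP48 and TP60, 6 and 5 of the genes elsewhere were called, beside 8 and 9 in the region of chromosome 3 and 7 and 7 in that of chromosome 13. Over all Pol III loci, the authors report that those changed at TP36 were unevenly spread over the chromosomes. They found chromosome 13 strongly enriched. By their account chromosomes 1 and 3 also held rather many such loci, which added little to their test score. Whether the pattern by region is particular to the Asn and Gln genes was not tested.

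Most genes were intergenic in the GENCODE annotation of this build. n-Tn7 lies in an exon of Ndufs7, which codes for a subunit of respiratory complex I, 38 bases from its transcription start site (TSS), and n-Tn11 lies in an intron of BC107364. A protein-coding TSS was within 2 kb of 4 of the 12 high genes, being that of Ndufs7 for n-Tn7, of Rab11a for n-Tq9 (288 bases), of Psmb3 for n-Tn8 (877 bases) and of Aloxe3 for n-Tq6 (1218 bases). Among the 13 lower occupied genes it was so for 1 (n-Tn11), and for 0 of the 5 never occupied. The shares in the other tRNA genes were 23.5%, 10.5% and 2.31%.

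Some genes had another tRNA gene less than 1.5 kb away. n-Tn7 and n-Tf3 (tRNA-Phe), 123 bases apart and with overlapping windows, had TP0 means of 5.67 and 5.35 and changes at TP36 of -0.06 and -0.01. n-Tq6 and n-Tl29 (tRNA-Leu), 285 bases apart and also overlapping, changed by 1.11 and 0.58, both uncalled. n-Tq7 lay 415 bases from n-Tl9 (tRNA-Leu), which began at 3.03 where n-Tq7 began at 4.41, and n-Tl9 was called at TP36 (2.14, q = 0.0212) while n-Tq7 was not (0.85, q = 0.154). Whether these changes differ was not tested. n-Tq10 and n-Ts5 (tRNA-Ser, 904 bases) rose by 3.17 and 2.35, and n-Tq8 and n-Td13 (tRNA-Asp, 1465 bases) by 3.42 and 2.40, all called. n-Tq14 and n-Tq15, 492 bases apart and identical, changed by 0.67 and 0.99 at TP36 and were both called at TP48 and TP60. n-Tn11 and n-Th7 (tRNA-His, 997 bases) rose by 2.28 and 2.94 at TP36. n-Tn13 and n-Th9 (tRNA-His, 997 bases) rose by 1.26 and 1.54, and all 4 genes were called. As given above, the scores of n-Tn11 and n-Tn13 cannot be told apart by sequence.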

How the data were processed

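RPC4 was measured by paired-end ChIP-seq in 8 of the 29 samples of the series, 2 for each of 4 time points. To make the log2 scores, the authors aligned fragments to NCBI37, set each total to the median total, and divided ChIP by input counts at each locus after adding a pseudocount. A percent value deposited beside each score tells how much of it came from fragments with multiple matches. The study's cutoffs come from the headers of the table. Other samples were not analysed here. The depth behind these scores is unknown, and the only error is the spread between 2 libraries.

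Scores were used with no further scaling. All loci were fitted in limma 3.58.1 (R 4.3.3) with a mean for every time point and moderated variances, and q values (Storey, two-sided) used a spline with 3 degrees of freedom over lambda from 0.05 to 0.95. The estimated share of true nulls was 0.51 at TP36, 0.385 at TP48 and 0.439 at TP60, so that a q value can be smaller than an adjusted p value (Benjamini-Hochberg). The fit was tested on simulated data with independent noise at each locus and in each library. These data lacked the shared shifts between libraries of a time point, so that this test says nothing on calls that depend on them. Sequences, T runs and nearest genes were read from the NCBI37 reference and its GENCODE annotation. Python 3.11.15, pandas 2.3.3, numpy 2.4.6, pysam 0.24.0 and matplotlib 3.10.9 were used.

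The genes, lists and tests were chosen with earlier results of these data known. Per-library values were given for genes called at TP36, the 3 with the largest moderated t among those called only later, the 3 Asn and 3 Gln genes with the highest TP0 mean, n-Tn13 as the gene with most multiple matches, and never-occupied genes as a range. Alternatives were Benjamini-Hochberg adjustment, a replicate block, a fit of the 2 time points compared, centring on background or on occupied loci, loci over 50% multiple matches left out, occupied loci only, the cutoff passed in both libraries, a cutoff raised by 0.5, and each library of the 2 time points compared left out.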

Additional observations from a re-analysis of the deposited data

How the results depend on the processing

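Without further scaling every call at TP36, TP48 and TP60 was upward, and it was upward in all alternatives but the centring of each library on the median of the occupied loci. That centring shifted changes by -1.81, -2.02 and -2.24 at TP36, TP48 and TP60, and gave 23, 22 and 22 calls, of which 8, 8 and 8 were higher. The median change was then -0.76, -0.33 and -0.32 over the 25 occupied genes and -0.86, -0.90 and -1.03 over all occupied loci, of which 354, 371 and 368 were called lower. Since 1 amount was subtracted from every locus, 46 positive changes turned negative and were called with this centring, without it or in both cases. At TP36, for example, n-Tq9 was called only with the centring and n-Tn5 only without it. At TP36 these were n-Tn6 -1.21, n-Tn9 -1.16, n-Tn5 -0.074, n-Tn13 -0.55, n-Tn12 -1.11, n-Tq2 -0.79, n-Tn14 -0.99, n-Tq9 -1.48, n-Tq6 -0.70, n-Tq16 -1.62, n-Tn8 -1.56, n-Tq7 -0.96, n-Tq13 -0.76, n-Tq14 -1.15 and n-Tq15 -0.83. At TP48 these were n-Tn6 -0.82, n-Tn9 -0.70, n-Tn4 -0.33, n-Tn13 -0.21, n-Tn12 -1.19, n-Tq2 -0.36, n-Tn14 -0.74, n-Tq9 -1.13, n-Tn7 -1.63, n-Tq6 -0.46, n-Tq16 -1.47, n-Tn8 -0.84, n-Tq7 -0.32, n-Tq13 -0.18, n-Tq14 -0.74 and n-Tq15 -0.51. At TP60 these were n-Tn6 -1.10, n-Tn9 -1.27, n-Tn13 -0.91, n-Tn12 -1.06, n-Tq2 -0.14, n-Tn14 -1.14, n-Tq9 -1.41, n-Tn7 -1.73, n-Tq6 -0.68, n-Tq16 -1.58, n-Tn8 -1.06, n-Tq7 -0.51, n-Tq13 -0.32, n-Tq14 -0.79 and n-Tq15 -0.32. Shifts from centring on background loci were under 0.1, with 11, 21 and 22 calls.

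Leaving out 1 library of the 2 time points compared gave 5 to 20 calls at TP36, 7 to 13 at TP48 and 9 to 23 at TP60, and a median change at TP36 of 0.45 to 1.62, the ends being those without replicate 1 and without replicate 2 of TP36. Benjamini-Hochberg adjustment gave 8, 12 and 16 calls at the 3 time points, occupied loci only with that adjustment 10, 16 and 17, a fit of the 2 time points alone 10, 24 and 21, the cutoff in both libraries 9, 21 and 21, and leaving out loci over 50% multiple matches 9, 20 and 20, with n-Tn13 left out. The replicate block gave 10, 18 and 18, without the calls of n-Tn6, n-Tn4 and n-Tq14 at TP48 and of n-Tn6, n-Tn12 and n-Tn14 at TP60. The labels give each number as a series without saying what its libraries share, and their deviations from the time point means correlated over all loci at 0.40 for TP0 with TP36, 0.48 for TP48 with TP60, and between -0.40 and 0.09 for the other 4 pairs, so that the numbers were not taken as pairs. Counts of occupied genes stayed within 1.5 times of those given when 1 library was left out or the cutoff was raised by 0.5. Between later time points, 0 of the 30 genes were called in any of the settings run. With 2 libraries a group and unknown depth, the smallest change called in the 4-group fit was 1.10, that of n-Tn14 at TP60, which was 0.69 and missed the threshold without replicate 2 of TP60, and other settings called smaller ones (0.54 in n-Tq16 at TP48 in the fit of 2 time points).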
